A study of Mus musculus with 12 samples.

Results

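Cdx2, Eomes, Hand1, Gata2, Gata3, Tfap2c, Elf5, Esx1 and Tead4 are 9 transcription factor genes known from the mouse trophoblast, and their expression was followed in mouse embryonic stem cells (ESCs) after knockdown of Ino80. Of 41174 array probes 125 were dropped for marked spots. All of the remaining 41049 that carry these genes' current or older symbols or their RefSeq accessions were taken. This gave 10 probes, with 2 for Gata2 and 1 for each other gene. Of the 9 genes, 8 were among the 19183 genes tested, and Elf5 was too dim. The cells were J1, a mouse ESC line, kept in ESGRO medium and moved to M15 medium for infection. A lentivirus brought in either a short hairpin RNA without a target (shNT, non-targeting) or one against Ino80 (shIno80), which encodes the motor subunit of the chromatin remodeller INO80, and total RNA was taken at day 2, 4 or 6. Each of the 6 groups held 2 single-colour Agilent arrays, listed as biological replicates, but the origin of the paired cultures is not described. The p-values therefore reflect only sample-to-sample spread, which could be technical in part. The number of different Ino80 hairpins is likewise not described, and the labels call the delivery an infection in one place and a transfection in another.

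The trophoblast is the outer lineage of the mouse blastocyst and builds the fetal part of the placenta. In the outer cells of the early embryo Tead4, a DNA-binding partner of the Hippo pathway coactivator Yap1, acts upstream of Cdx2, and Cdx2 represses the ESC factor Pou5f1, while Gata3 is induced beside Cdx2. Eomes, Tfap2c and Elf5 belong with Cdx2 to the circuit that keeps trophoblast stem cells, and Hand1, Gata2 and Esx1 are known from their differentiating descendants. None of these genes is restricted to trophoblast: Eomes, Hand1 and Gata2 also act in embryonic mesoderm, Gata2 and Gata3 in blood cells, and Tfap2c in primordial germ cells.

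The deposited value table and the scanner files tie 6 of the 12 arrays to different samples, with the arrays at positions 2 and 3 of each slide exchanged. Samples are named here as in the value table, a choice made with the data in view, under which the correlation across probes was 0.987 to 0.989 within groups and 0.953 to 0.987 for other pairs. With the scanner file attachments it was 0.965 to 0.987 within groups, and none of the 19183 genes differed between hairpins on any day by limma's test (586, 166 and 374 genes had an unadjusted p under 0.05 at days 2, 4 and 6). All values for the members rest on the value table's record unless the attachments are named. Each slide held the 4 arrays of 1 day, so slide and day cannot be told apart, nor can position on the slide and hairpin. On each array 61.9% to 69.2% of probes were well above background, and the log2 signal of Ino80 was 1.89 to 2.72 on the shNT arrays and -0.29 to 0.85 on the shIno80 arrays. Of 8 ESC markers all were well above background on every array. In RNA from a whole culture, fewer cells of a type and less RNA per cell cannot be told apart.

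At days 4 and 6 the trophoblast factors stood higher under shIno80, with Tfap2c as the exception. Signal is given as log2 of the processed intensity minus the array's 75th percentile, so that 0 is the 75th percentile of that array, and differences are shIno80 minus shNT. A gene was called where limma's adjusted p over all genes tested was under 0.05. At day 2, 1 of 8 factors was called higher (Esx1) and 2 lower (Gata2 and Tfap2c), against 6.29% of all genes higher and 6.21% lower. At day 4, 7 of 8 were called higher and 0 lower, against 20.9% and 21.3% of all genes, and the median log2 difference of the 8 was 2.07 against -0.050 over all genes. At day 6, 7 of 8 were called higher and 1 lower (Tfap2c), against 21% and 29.5%, with a median of 2.86 against -0.14. In all, 12.5% of genes were called at day 2, 42.3% at day 4 and 50.6% at day 6. The share of called genes that were higher moved with the scaling: at day 4 it was 49.6%, or 39.4% with arrays scaled to their median, and at day 6 it was 41.6%, or 62% in the value table. These settings moved the median of all genes by -0.14 at day 4 and by 0.20 at day 6, and the 7 factors called higher at each of these days were called higher under them too.

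**Figure D1:**
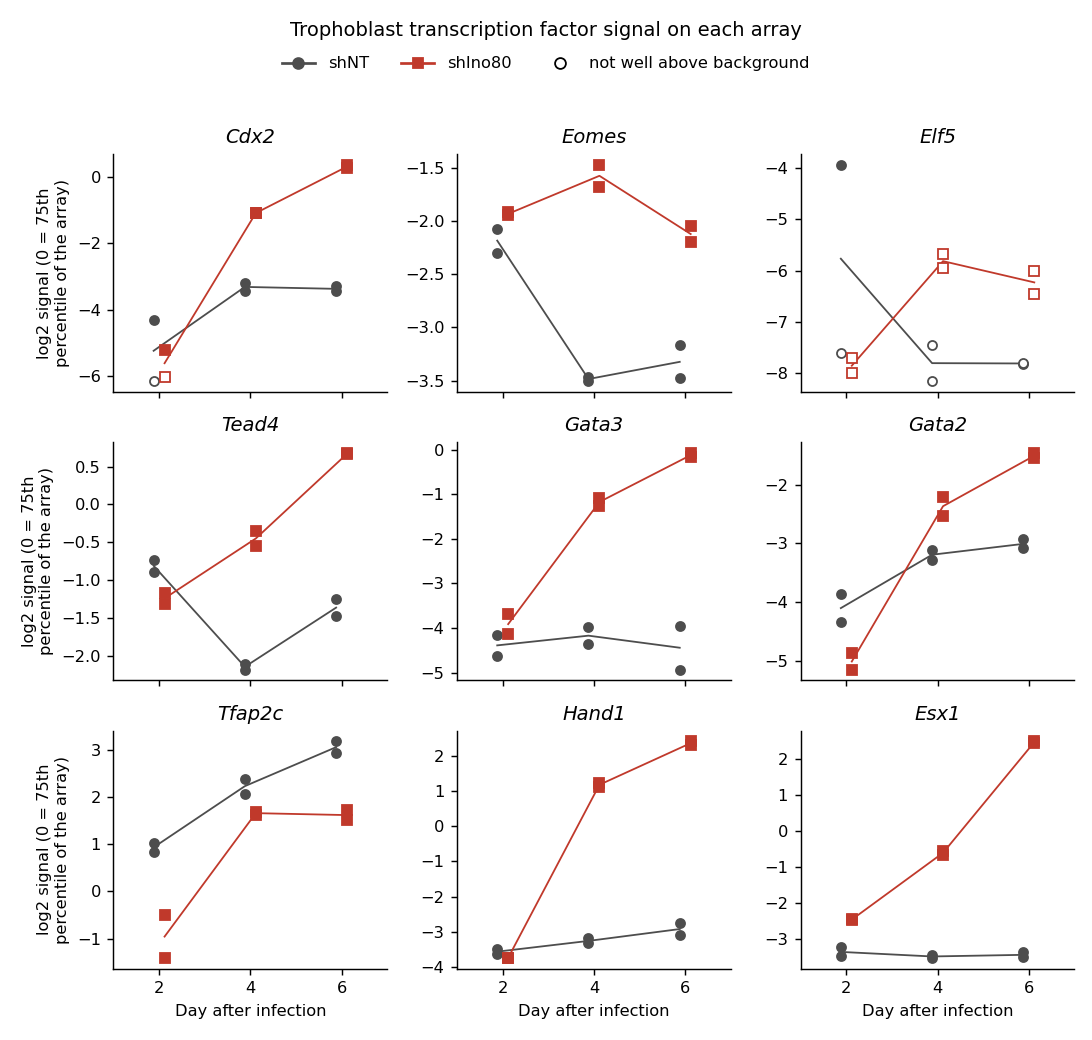
Log2 signal of the brightest probe of each of the 9 genes on every array (0 is the array's 75th percentile) against the day after infection, with circles for shNT, squares for shIno80, open symbols for arrays where the probe was not well above background and lines through the group means. Hand1 and Esx1 separate the hairpins most at day 6, Tfap2c lies lower under shIno80, and all but 1 of the Elf5 points are open.

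The sequences just upstream of 4 of these genes are shown. Cdx2, Gata3 and Esx1 were called higher under shIno80 at days 4 and 6. Elf5, which belongs with Cdx2 to the trophoblast stem cell circuit, could not be measured well. Eomes and Gata2 were also called higher at days 4 and 6, but their sequences are not shown. RefSeq's table for build GRCm38.p6 gave start sites for 6 of the 9 genes (8 windows, since Elf5 and Gata2 each had 2), and the 250 bases before each start were read in the direction of the gene. Capitals mark matches, on either strand, to letters that stand for the members' own families and for 2 core elements: AGATAA for zinc finger factors of the Gata family, GCCNNNGGC for AP-2, GGAATG for TEAD, TTTATG for the Cdx family, GGTGTG for T-box factors, TATAAA for the core element of that name, and ATGCAAAT for the octamer of Pou5f1 and its relatives, which was added after the Cdx2 sequence was read.
Cdx2, chr5:147307250-147307499, minus strand: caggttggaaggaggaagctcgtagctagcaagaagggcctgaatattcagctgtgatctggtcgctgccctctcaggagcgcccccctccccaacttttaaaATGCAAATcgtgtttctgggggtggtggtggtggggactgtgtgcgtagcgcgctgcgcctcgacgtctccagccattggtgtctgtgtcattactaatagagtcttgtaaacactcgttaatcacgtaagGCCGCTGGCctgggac
Gata3, chr2:9878601-9878850, minus strand: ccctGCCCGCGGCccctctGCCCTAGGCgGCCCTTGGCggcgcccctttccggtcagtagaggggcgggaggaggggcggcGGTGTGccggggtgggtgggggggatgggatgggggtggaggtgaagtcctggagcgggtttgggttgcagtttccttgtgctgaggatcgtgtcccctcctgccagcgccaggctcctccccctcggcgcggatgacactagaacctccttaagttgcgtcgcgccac
Esx1, chrX:137120327-137120576, minus strand: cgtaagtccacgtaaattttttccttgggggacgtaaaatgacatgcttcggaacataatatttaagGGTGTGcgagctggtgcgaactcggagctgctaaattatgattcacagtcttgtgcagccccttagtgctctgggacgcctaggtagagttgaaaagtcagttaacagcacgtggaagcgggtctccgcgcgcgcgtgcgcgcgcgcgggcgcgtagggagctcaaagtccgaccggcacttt
Elf5, the start at the lower coordinate, chr2:103411848-103412097, plus strand: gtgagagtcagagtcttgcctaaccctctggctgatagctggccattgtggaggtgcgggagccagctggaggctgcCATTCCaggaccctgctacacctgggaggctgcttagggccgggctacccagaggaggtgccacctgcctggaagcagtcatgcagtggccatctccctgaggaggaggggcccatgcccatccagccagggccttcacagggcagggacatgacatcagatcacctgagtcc
The Cdx2 window held the octamer with its first base 147 bases before the start, and an AP-2 match 16 bases before it. Of all 32851 windows 1.6% held the octamer and 13.7% the AP-2 letters. The Gata3 window held the AP-2 letters at 246, 231 and 221 bases before the start and a T-box match at 169. G and C made up 70% of this window and 55.2% of the Cdx2 window, against a median of 52.4% over all windows. Esx1 had a T-box match at 183 bases, letters found in 16.3% of all windows, and the Elf5 window shown had a TEAD match at 173 bases, letters found in 12.6%. Of the windows not shown, the other Elf5 window held a Cdx match at 37 bases and a T-box match at 71. The Gata2 window at the higher coordinate held an AP-2 match at 222 bases and a TEAD match at 120. The Eomes window and the other Gata2 window held no match. No window of the 6 genes held AGATAA or TATAAA, which 9.99% and 12.4% of all windows held, and 1, the other Elf5 window, held TTTATG, against 10.8%. CpG dinucleotides numbered 13 for Cdx2, 19 for Gata3 and 24 for Esx1, against a median of 6 over all windows, and 2 for the Elf5 window shown and 8 for its other window. The Elf5 promoter is known to be methylated in ESCs. These matches describe the letters alone, and no binding or methylation was measured here.

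Tead4 was higher under shIno80 at days 4 and 6 and was not called at day 2. Tead4 signal under shNT was -0.89 and -0.73 at day 2, -2.18 and -2.11 at day 4, and -1.47 and -1.25 at day 6. Tead4 signal under shIno80 was -1.31 and -1.17 at day 2, -0.55 and -0.35 at day 4, and 0.68 and 0.66 at day 6. The shIno80 arrays lay below both shNT arrays at day 2 and above them at days 4 and 6, with no overlap on any day. The log2 difference was -0.43 (SE 0.12, adjusted p = 0.0562) at day 2, 1.69 (adjusted p = 2.58e-05) at day 4 and 2.03 (adjusted p = 8.15e-06) at day 6, which is 3.23-fold and 4.08-fold higher on the later days. The day 2 difference passed the threshold with quantile normalization, at -0.47 (adjusted p = 0.0384), and with normexp background correction, at -0.35 (adjusted p = 0.0362). It did not pass in the value table (-0.33, adjusted p = 0.108), with median scaling, with the 4 arrays of day 2 alone (adjusted p = 0.299) or with any 1 array left out (adjusted p = 0.0639 to 0.215). The order of the groups was shIno80 at day 6, shIno80 at day 4, shNT at day 2, with the shIno80 day 2 and shNT day 6 arrays interleaved next, and shNT at day 4 last. Its probe lies at chr6:128250598-128250657 on the minus strand of mm7, the build named in the files.

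Cdx2, the homeobox factor needed for the trophectoderm, was near background at day 2 and then rose under both hairpins, further under shIno80. Cdx2 signal under shNT was -6.16 and -4.33 at day 2, -3.43 and -3.21 at day 4, and -3.30 and -3.45 at day 6. Cdx2 signal under shIno80 was -6.02 and -5.21 at day 2, -1.08 and -1.10 at day 4, and 0.36 and 0.25 at day 6. The day 2 arrays of the hairpins overlapped, and on 1 of the 2 arrays of each the probe was not well above background. At day 2 the log2 difference was -0.37 (SE 0.51, adjusted p = 0.724), and 1 array decided its sign: it was -1.29 (adjusted p = 0.0419) without the first shNT array of day 2, 0.54 without the second, and 0.033 without the first shIno80 array. Cdx2 was 4.68-fold higher at day 4 (log2 difference 2.23, adjusted p = 0.00784) and 12.9-fold higher at day 6 (3.68, adjusted p = 0.000468), with no overlap on these days. With normexp the differences at days 4 and 6 were 1.41 and 2.63. The shIno80 arrays of day 6 stood highest, those of day 4 next, then the shNT arrays of days 4 and 6, which overlapped. The Cdx2 probe lies at chr5:146195375-146195434 on the minus strand of mm7.

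Gata3, a zinc finger factor of the trophectoderm, rose under shIno80 and was not called between any days under shNT. Gata3 signal under shNT was -4.62 and -4.16 at day 2, -4.35 and -3.98 at day 4, and -4.93 and -3.95 at day 6. Gata3 signal under shIno80 was -4.14 and -3.69 at day 2, -1.26 and -1.09 at day 4, and -0.17 and -0.079 at day 6. The 6 shNT arrays lay in 1 overlapping range, and the day 4 and day 6 shIno80 arrays lay above it. The log2 difference was 0.48 (SE 0.32, adjusted p = 0.408) at day 2, 2.99 (adjusted p = 0.000158) at day 4 and 4.31 (adjusted p = 1.85e-05) at day 6, which is 7.97-fold and 19.9-fold higher on the later days. With normexp the differences at days 4 and 6 were 1.60 and 2.48, and in the value table they were 2.11 and 3.39. The change of the difference from day 2 to day 6 was 3.84 (adjusted p = 0.000741). The Gata3 probe lies at chr2:9796514-9796573 on the minus strand of mm7.

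Eomes, the T-box factor of trophoblast stem cells and of the primitive streak, fell under shNT between days 2 and 4 and did not fall under shIno80 in that span. Eomes signal under shNT was -2.07 and -2.30 at day 2, -3.51 and -3.47 at day 4, and -3.17 and -3.48 at day 6. Eomes signal under shIno80 was -1.92 and -1.95 at day 2, -1.68 and -1.47 at day 4, and -2.05 and -2.19 at day 6. The 8 arrays other than the shNT arrays of days 4 and 6 lay above those 4. Eomes was 3.76-fold higher under shIno80 at day 4 (log2 difference 1.91, SE 0.14, adjusted p = 2.71e-05) and 2.30-fold higher at day 6 (1.20, adjusted p = 0.000194), after 0.25 (adjusted p = 0.308) at day 2. Among the 7 factors called higher at both of these days it was the one whose difference was smaller at day 6 than at day 4, by -0.71 (SE 0.20), which did not pass (adjusted p = 0.0994) but did with quantile normalization, at -0.67 (adjusted p = 0.0402). With normexp the differences at days 4 and 6 were 1.02 and 0.56. The Eomes probe lies at chr9:118163832-118163891 on the plus strand of mm7.

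Tfap2c, an AP-2 factor of trophoblast stem cells and germ cells, went the other way and was lower under shIno80. Tfap2c signal under shNT was 0.83 and 1.04 at day 2, 2.39 and 2.08 at day 4, and 2.94 and 3.18 at day 6. Tfap2c signal under shIno80 was -1.41 and -0.50 at day 2, 1.69 and 1.63 at day 4, and 1.52 and 1.72 at day 6. On each day both shIno80 arrays lay below both shNT arrays, while under each hairpin the day 4 and day 6 arrays lay above those of day 2. Tfap2c was 3.71-fold lower at day 2 (log2 difference -1.89, SE 0.27, adjusted p = 0.00452) and 2.71-fold lower at day 6 (-1.44, adjusted p = 0.00234). At day 4 the difference of -0.57 did not pass (adjusted p = 0.122), but it did without either shIno80 array of day 2 (adjusted p = 0.0211), with the 4 arrays of day 4 alone (adjusted p = 0.0357) and in the value table (-0.54, adjusted p = 0.0402). With the 4 arrays of day 2 alone the day 2 call was lost (adjusted p = 0.124), as were those of Esx1 (0.131) and Gata2 (0.183), in a fit that called 6 of all genes. The probe, which the files name by the older symbol Tcfap2c, is at chr2:172351014-172351073 on the plus strand of mm7.

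Elf5, the Ets factor that marks trophoblast stem cells, was not well above background on 11 of the 12 arrays. Elf5 signal under shNT was -7.60 and -3.93 at day 2, -8.16 and -7.46 at day 4, and -7.82 and -7.81 at day 6. Elf5 signal under shIno80 was -7.71 and -8.00 at day 2, -5.95 and -5.69 at day 4, and -6.46 and -6.00 at day 6. The probe was well above background on 1 array alone, the second shNT array of day 2, where its processed intensity was 77.0, against 6.50 on the other array of that group. The 4 shIno80 arrays of days 4 and 6 read 18.7 to 24.2 in processed intensity and lay above the 4 shNT arrays of those days, but none of them was well above background, so no fold is given. No group had the probe well above background on both arrays, so Elf5 was not tested. The probe is at chr2:103301588-103301647 on the plus strand of mm7.

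Hand1, a basic helix-loop-helix factor of trophoblast giant cells and of lateral mesoderm, rose steeply between days 2 and 4. Hand1 signal under shNT was -3.64 and -3.50 at day 2, -3.33 and -3.19 at day 4, and -2.77 and -3.09 at day 6. Hand1 signal under shIno80 was -3.74 and -3.75 at day 2, 1.23 and 1.13 at day 4, and 2.41 and 2.32 at day 6. The shIno80 arrays of day 2 lay just below every shNT array, and those of days 4 and 6 lay far above all of them. Hand1 was 21.8-fold higher at day 4 (log2 difference 4.44, SE 0.13, adjusted p = 3.22e-06) and 39.2-fold higher at day 6 (5.29, adjusted p = 4.9e-07), after -0.18 (adjusted p = 0.45) at day 2. In the value table, which has no background subtraction, the log2 differences were 3.86 and 5.03, and with normexp they were 3.25 and 4.29. The Hand1 probe lies at chr11:57910385-57910444 on the minus strand of mm7.

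Gata2, a zinc finger factor of trophoblast giant cells and blood progenitors, was lower under shIno80 at day 2 and higher later. Gata2 signal under shNT was -4.34 and -3.87 at day 2, -3.28 and -3.11 at day 4, and -3.09 and -2.93 at day 6. Gata2 signal under shIno80 was -5.15 and -4.88 at day 2, -2.53 and -2.21 at day 4, and -1.55 and -1.46 at day 6. The hairpins did not overlap on any day, and the shIno80 arrays held both the lowest and the highest of the 12 signals. The log2 difference was -0.91 (SE 0.19, adjusted p = 0.0183) at day 2, 0.83 (adjusted p = 0.00739) at day 4 and 1.50 (adjusted p = 0.000263) at day 6. The day 2 call was lost without the second shNT array of that day (adjusted p = 0.0653), without its first shIno80 array (0.0928), with normexp (-0.22, adjusted p = 0.185) and in the value table (-0.33, adjusted p = 0.103). The day 4 call was lost without the first shNT array of day 4 (adjusted p = 0.0507) or its second shIno80 array (0.0582), and with normexp the differences at days 4 and 6 were 0.37 and 0.83. The other Gata2 probe, which starts 473 bases away, gave -1.03, 0.56 and 1.31, of which the day 4 value did not pass (adjusted p = 0.0283, 0.0929 and 0.00203, over all 28654 probes kept). The probes are at chr6:88281934-88281993, which stands for the gene, and chr6:88281461-88281520, on the plus strand of mm7.

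Esx1, an X-linked homeobox factor of extraembryonic tissue and the placental labyrinth, was called higher under shIno80 on all 3 days and had the largest difference of the 8 genes at day 6. Esx1 signal under shNT was -3.25 and -3.49 at day 2, -3.45 and -3.54 at day 4, and -3.38 and -3.52 at day 6. Esx1 signal under shIno80 was -2.45 and -2.49 at day 2, -0.56 and -0.66 at day 4, and 2.45 and 2.49 at day 6. The 6 shNT arrays shared 1 narrow range, and the shIno80 arrays stood above it in 3 separate steps. Esx1 was 1.87-fold higher at day 2 (log2 difference 0.90, SE 0.11, adjusted p = 0.00268), 7.39-fold at day 4 (2.89, adjusted p = 4.35e-06) and 60.6-fold at day 6 (5.92, adjusted p = 1.98e-07). In the value table the log2 differences at days 4 and 6 were 2.32 and 5.51, and with normexp they were 1.78 and 4.80. The Esx1 probe lies at chrX:131834651-131834710 on the minus strand of mm7.

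**Figure D2:**
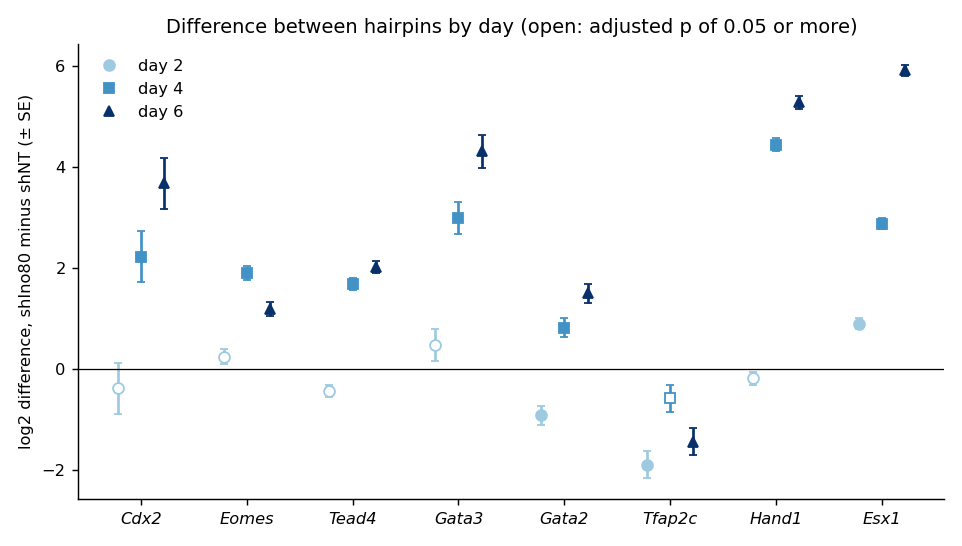
Log2 difference, shIno80 minus shNT, of the 8 tested genes at days 2, 4 and 6, with bars of 1 SE from limma and open symbols where the adjusted p was 0.05 or more. Esx1 reaches 5.92 and Hand1 5.29 at day 6, and Tfap2c lies below 0 on each day.

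The hairpin difference itself changed with time for every factor but Tfap2c. From day 2 to day 4 the signed difference moved upwards for 7 of 8 genes, against 8.17% of all genes, by 1.66 (Eomes) to 4.62 (Hand1) on the log2 scale, and for Cdx2, Hand1, Gata2 and Tead4 it went from below 0 to above 0. Of these, Gata2 alone was called lower at day 2, so the day 2 sign of Cdx2, Hand1 and Tead4 is not settled. From day 4 to day 6 the signed difference moved upwards for 2 of 8, against 1.55% of all genes: Esx1 by 3.04 (SE 0.16, adjusted p = 0.000753) and Hand1 by 0.85 (SE 0.18, adjusted p = 0.0431). The Hand1 change was lost when any 1 of 9 arrays was left out (adjusted p up to 0.154). Over the whole span it moved upwards for 7 of 8, against 11.3% of all genes, and Tfap2c changed by 0.45 (SE 0.38, adjusted p = 0.418). The Cdx2 change from day 2 to day 4 was 2.60 (SE 0.72, adjusted p = 0.0446). It was 3.51 without the first shNT array of day 2 and 1.69 without the second, and the change to day 6 of 4.06 was 4.97 and 3.15. The change to day 4 did not pass with quantile normalization (2.48, adjusted p = 0.0513), with no filter on dim probes (adjusted p = 0.0855) or when any 1 of 9 arrays was left out (adjusted p up to 0.132). For Tfap2c the change from day 2 to day 4 of 1.32 did not pass (SE 0.38, adjusted p = 0.051), but it did with quantile normalization (1.41, adjusted p = 0.0328) and in the value table (1.18, adjusted p = 0.0106). Hand1 had reached 4.44 of its day 6 difference of 5.29 by day 4, and Esx1 2.89 of 5.92.

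Within the shNT cultures the factors did not move as one, and slide and day cannot be told apart in these values. Between days 2 and 4, where 7.63% of all genes rose and 6.72% fell, Cdx2 rose by 1.92 (SE 0.51) from day 2 signals of -6.16 and -4.33, of which 1 was well above background, Gata2 by 0.91 (SE 0.19) and Tfap2c by 1.30 (SE 0.27), and Eomes fell by 1.30 (SE 0.14) and Tead4 by 1.33 (SE 0.12). Hand1, Gata3 and Esx1 were not called, at 0.31, 0.22 and -0.13. Between days 4 and 6, where 7.84% of genes rose, Tead4 rose by 0.78 (SE 0.12, adjusted p = 0.00975) and the other 7 were not called. Over the whole span from day 2 to day 6, where 11.7% of genes rose and 11.1% fell, Cdx2, Hand1, Gata2 and Tfap2c rose and Eomes and Tead4 fell. Hand1 gained 0.64 (adjusted p = 0.00933) in that time, and Tead4 lost its call with arrays scaled to their median (-0.51, adjusted p = 0.0617).

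Under shIno80 most factors rose over the same spans. By day 4, 7 of 8 factors rose from their day 2 signal, against 20.7% of all genes. Among them were Hand1 at 4.93 (SE 0.13), Cdx2 at 4.52 (SE 0.51) and Gata3 at 2.74 (SE 0.32). Gata2 rose by 2.65 (SE 0.19) and Tfap2c by 2.62 (SE 0.27). Cdx2 rose from day 2 signals of -6.02 and -5.21, of which 1 was well above background. Eomes was not called, at 0.36 (SE 0.14, adjusted p = 0.0763), but passed with quantile normalization (0.32, adjusted p = 0.0378). From there to day 6, where 8.21% of genes rose and 17% fell, Hand1, Gata2, Gata3, Esx1 and Tead4 rose and Eomes fell by 0.55 (SE 0.14, adjusted p = 0.0263). Cdx2 and Tfap2c were not called in that span, at 1.40 (SE 0.51, adjusted p = 0.0744) and -0.041 (SE 0.27), and the sign of the latter turned with median scaling, to 0.053. The Gata3 rise of 1.05 (adjusted p = 0.0445) was lost with arrays scaled to their median (adjusted p = 0.0529) and with quantile normalization (0.0673). Over the whole span all but Eomes rose, against 19.8% of all genes, and Eomes stood at -0.19 (SE 0.14). Tfap2c rose under both hairpins while it stayed lower under shIno80, and Eomes ended at about its day 2 signal under shIno80 and below it under shNT.

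**Figure D3:**
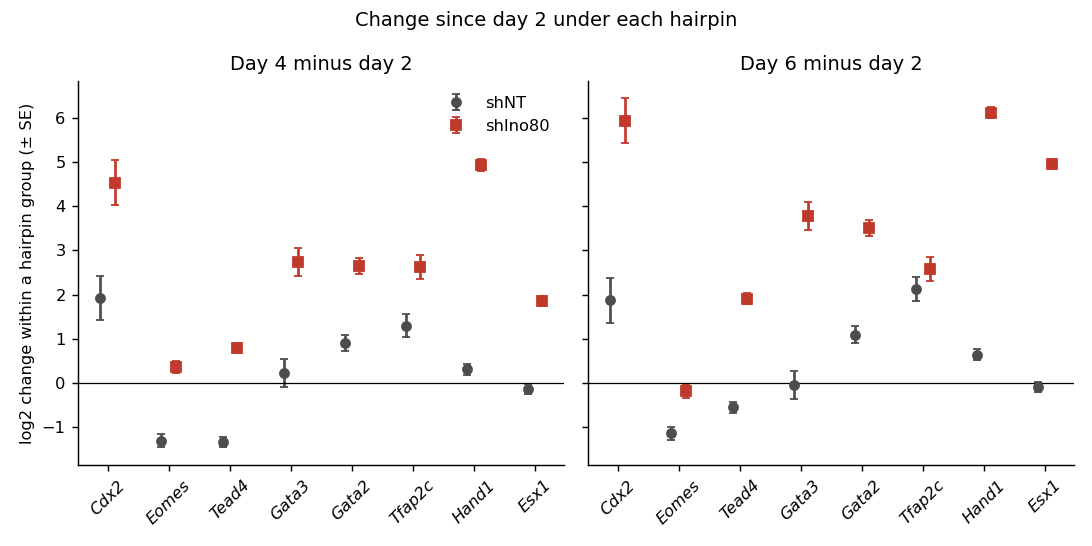
Log2 change since day 2 within each hairpin group for the 8 tested genes, at day 4 and day 6, with bars of 1 SE from limma. Under shNT Gata3 and Esx1 lie near 0, Eomes and Tead4 below it and Cdx2, Gata2 and Tfap2c above it, and under shIno80 the change of Cdx2 reaches 5.92 and that of Hand1 6.11 at day 6. Each day was 1 slide, and at day 2 the Cdx2 probe was well above background on 1 of 2 arrays of each hairpin.

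Closely related factors of the same families were called in both directions, at day 6 in shares near those of all genes. Of 18 listed paralogues all were on the array and 15 were tested. At day 2, 0 were higher and 2 lower, at day 4, 2 higher and 5 lower, and at day 6, 3 higher and 5 lower. Of all genes 6.29% were higher and 6.21% lower at day 2, 20.9% and 21.3% at day 4, and 21% and 29.5% at day 6. The paralogues' median differences were -0.37, -0.24 and -0.18, and in the value table -0.13, -0.075 and 0.025. There 0 paralogues were called lower at day 2, beside 1017 of all 19183 genes. Within the TEAD family Tead3 rose with Tead4, at 1.44 (SE 0.20) at day 4 and 1.72 at day 6, Tead1 was higher at day 6 by 0.75 (SE 0.12), and Tead2, the TEAD gene known for its expression in ESCs, was lower by -1.29 (SE 0.20) and -1.10. Tead1 was called lower at day 2 (-0.45, adjusted p = 0.0399), a call lost with median scaling and in the value table. Among AP-2 genes Tfap2a, known from trophoblast and neural crest, was higher at day 6 by 1.87 (SE 0.24, adjusted p = 0.000349) while Tfap2e was lower by -1.01 (SE 0.29, adjusted p = 0.02) and Tfap2b was not called. Gata1, the erythroid GATA factor, was lower on all 3 days, by -0.72, -1.23 and -0.91, though not at days 2 and 6 in the value table. Gata6, a primitive endoderm factor, was lower at day 4 by -2.53 (SE 0.30, adjusted p = 0.000298) and stood at -0.13 at day 6, where its sign turned in the value table. Cdx1 was lower at days 4 and 6, by -0.57 and -0.82, and Cdx4 was higher at day 4 by 1.47 (SE 0.40). The Cdx1 call at day 4 was lost with normexp and in the value table. Of the Ets relatives of Elf5, Elf3 was not called on any day, with -0.84 (SE 0.31, adjusted p = 0.0521) at day 6, which passed with median scaling and with normexp. Ehf was called lower at day 4 (-0.74, adjusted p = 0.0447), where it was well above background on 1 of the 2 shIno80 arrays, a call lost with normexp and in the value table. Tbr1, Gata5 and Tfap2d were too dim to be tested. Hand2 and Gata4 were not called on any day, while Tbx21, a T-box relative of Eomes known from T cells, was lower at day 6 by -1.23 (SE 0.15).

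**Figure D4:**
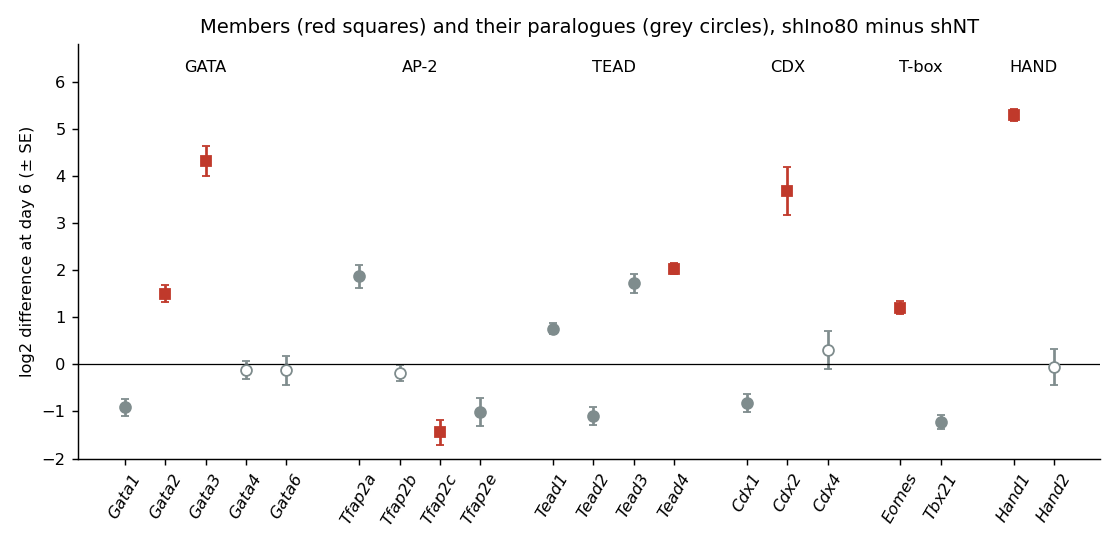
Log2 difference at day 6, shIno80 minus shNT, of members (red squares) beside their tested paralogues (grey circles), grouped by family, with bars of 1 SE and open symbols where the adjusted p was 0.05 or more. Esx1, Elf3 and Ehf are not drawn. Tead3, Tead1 and Tfap2a are the paralogues called higher, at 1.72, 0.75 and 1.87.

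Other genes known from trophoblast rose in the same cultures. Of 30 listed, 28 were on the array and 24 were tested: 3 were higher and 1 lower at day 2, 18 and 1 at day 4, and 18 and 0 at day 6. Over all genes the shares were 6.29% and 6.21%, 20.9% and 21.3%, and 21% and 29.5%. The list had medians of 0.29, 1.26 and 2.01 against 0.016, -0.050 and -0.14 over all genes. With the genes that have only a bound set at that bound, the day 4 median was 1.22. At day 6 the simple epithelial keratins Krt7 and Krt8 were higher by 5.37 (SE 0.26) and 4.77 (SE 0.20), and the homeobox gene Dlx3, which acts in the placenta, was not well above background under shNT and at least 11.1-fold higher under shIno80. The lower bound takes, for each dim array, the higher of its own signal and the lowest signal well above background. Markers of differentiated trophoblast, 8 genes that partly belong to the list above, were measured in part: 6 were on the array, of which Tpbpa, Ctsq and Synb were too dim and 3 were tested. Of these Gcm1, a labyrinth factor, was higher at days 4 and 6, by 1.19 and 1.01, and Prl3d1 and Prl3b1, hormones of giant cells and spongiotrophoblast, were not called on any day.

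The Hippo pathway, which acts on Tead4 through Yap1, changed in its members unequally. Of 14 listed genes all were tested, and 2 were higher and 2 lower at day 2, 7 and 2 at day 4, and 8 and 2 at day 6, beside 6.29% and 6.21%, 20.9% and 21.3%, and 21% and 29.5% of all genes. The medians were 0.052, 0.37 and 0.72, against 0.016, -0.050 and -0.14 over all genes. Lats2, a kinase that restrains Yap1, and Amotl2, an angiomotin that binds it, were higher at day 6 by 3.39 (SE 0.21) and 2.69 (SE 0.16). Nf2, an upstream activator of the kinases, and Stk4, one of the kinases, were lower by -1.24 (SE 0.13) and -1.21 (SE 0.19). Yap1 itself was not called on any day and stood at 0.050 at day 4 and -0.086 at day 6, values whose sign turned with median scaling at day 4 and in the value table at day 6. Wwtr1, the other coactivator, was higher at days 4 and 6, by 0.74 and 1.48.

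Markers of other cell types were called beside the members, and their counts stand against 6.29% of all genes higher and 6.21% lower at day 2, 20.9% and 21.3% at day 4, and 21% and 29.5% at day 6. Counts from the value table have another background: at day 6 it had 5603 of the 19183 genes higher and 3439 lower, against 4034 and 5666 in the fit used here. The number of lower ESC markers, of 8, was 1, 7 and 8 on the 3 days, and their summed signal, as a multiple of the array's 75th percentile, was 294 to 342 on the shNT arrays of day 6 and 81.4 to 96.1 on the shIno80 arrays. Fibroblast markers, 11 of 12 tested, were higher in 6 and lower in 1 at days 4 and 6 (8 and 0 at day 6 in the value table), with a summed signal of 1.83 to 2.04 under shNT at day 6 and 5.41 to 5.57 under shIno80. Primitive streak and mesoderm markers, where Eomes and Hand1 are also at work, numbered 10 tested of 13: 3 were higher and 3 lower at day 4, and 4 and 5 at day 6. The value table had 3 lower at day 6, and at day 4 the alternatives gave 2 to 3 higher and 3 to 5 lower. Their summed signal at day 6 was 0.92 to 0.97 under shNT and 1.85 to 1.90 under shIno80. Mixl1, Foxf1 and Msgn1 were not tested because they were too dim. Blood and endothelial markers, where Gata2 and Gata3 are known, were 6 tested of 9, with 1 higher and 1 lower at day 4 and 1 and 4 at day 6 (1 and 2 in the value table). Of 8 primitive endoderm markers 2 were higher and 0 lower at day 2, 2 and 2 at day 4, and 2 and 1 at day 6. The day 4 counts were near the shares of all genes, and the day 2 count of higher markers was above its share. The part of these cell types in the members' differences was not tested.

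**Figure D5:**
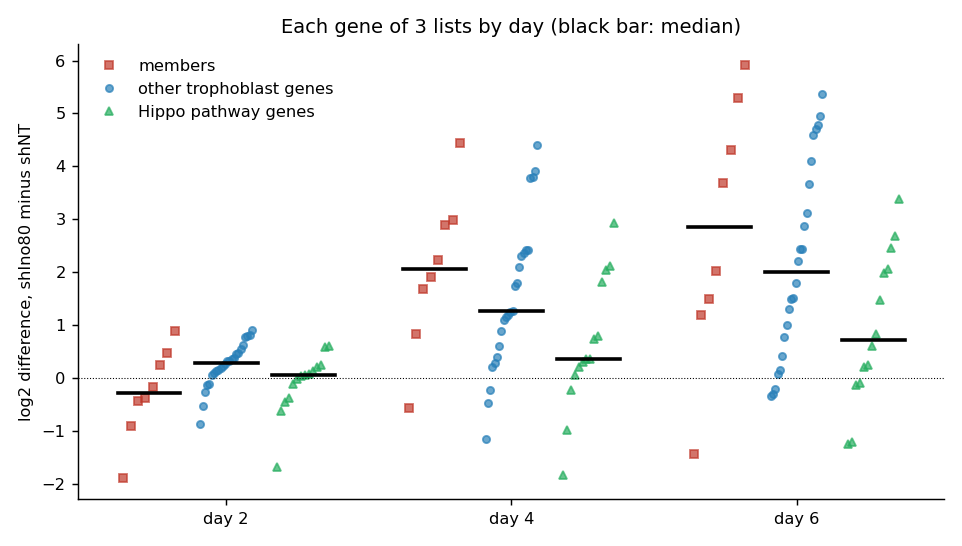
Log2 difference, shIno80 minus shNT, of each tested gene of 3 lists (the members, the other trophoblast genes and the Hippo pathway genes) at days 2, 4 and 6, with a black bar at each median. The medians of the members are -0.28, 2.07 and 2.86, those of the other trophoblast genes 0.29, 1.26 and 2.01, and those of the Hippo genes 0.052, 0.37 and 0.72.

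For each member the named genes whose signal ran most alike over the 12 arrays were sought by Pearson's r among 2592 genes (2593 for Eomes) whose group means spanned at least 2 on the log2 scale. Hand1 ran with Dsp (r = 0.997), which encodes desmoplakin of epithelial junctions, Capg (0.993) and Nipal2 (0.993). Esx1 ran with Wls (0.993), the carrier of Wnt proteins, Pard6b (0.990), a cell polarity protein, and Cryab (0.988). Cdx2 ran with Clcn5 (0.991), the growth factor gene Igf2 (0.987) and Adamts1 (0.983), and Gata3 with Gadd45b (0.986), Vgll3 (0.985), a TEAD cofactor, and Aim1 (0.985). Gata2 ran with Upk3bl (0.984), Zc3h12c (0.976) and Galnt14 (0.975), and Tead4 with Bach2 (0.976), Ptges (0.971) and Hspb2 (0.970). The highest r of Eomes was 0.971, with Syne2, before Slc35d3 (0.956) and Xpnpep2 (0.953). That of Tfap2c was 0.944, with Ube2e1, before the imprinted placental gene Phlda2 (0.940). These values describe 12 arrays in 6 groups on 3 slides, and arrays of a group share their condition.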

How the data were processed

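Total RNA from J1 cells was measured on 12 single-colour Agilent arrays. Feature Extraction made the deposited intensities, subtracting background and detrending within each array, per the file headers. A second deposited record, the value table, is in log2. Its columns match, up to 1 constant per array (relative tolerance 1e-06), the scanner's mean spot intensities without background subtraction; the origin of these constants is not described. The labels name the dye Cy5, while the files hold green columns.

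Processed intensity was divided by its 75th percentile on the array (1162 to 1643) and put on the log2 scale. Of 41174 probes 125 were dropped for marked spots, and the 28654 retained were detected above background by both arrays in some group. The brightest probe over the 12 arrays stood for a gene. A linear model with 1 mean per group was fitted in R 4.3.3 using lmFit and eBayes of limma 3.58.1, with 6 degrees of freedom from the arrays and 2.19 from the prior, and the Benjamini-Hochberg adjustment covered 19183 genes, with a threshold of 0.05. Probes were named by RefSeq accession or symbol. A lone remaining array, where 1 was left out, is assumed to vary like the other groups.

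The members and gene lists were chosen with earlier results of these data known. Named are all members with every probe, their listed paralogues, the 3 genes most like each member (1 of those for Tfap2c is not reported here), and up to 3 genes of the trophoblast list and 2 of the Hippo list with the largest rise and fall at day 6; Wwtr1, Yap1, Gcm1, Prl3d1, Prl3b1 and the untested markers were named beside them after their values were seen. The alternatives were scaling, background correction, the value table, the filter on dim probes, the probe rule, the replicate block, each day alone, each array left out and the other record of samples.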

Additional observations from a re-analysis of the deposited data

Results flagged for a closer look

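The shIno80 minus shNT difference of 7 of the 8 tested factors changed between days by limma's test of that change, which used all 12 arrays. Of all genes, 8.17% were called as moving upwards from day 2 to day 4, 1.55% from day 4 to day 6 and 11.3% from day 2 to day 6. From day 2 to day 4 the difference changed by 2.60 for Cdx2 (adjusted p = 0.0446), 1.66 for Eomes (0.00173), 4.62 for Hand1 (3.92e-05), 1.74 for Gata2 (0.00448), 2.52 for Gata3 (0.00874), 1.99 for Esx1 (0.000375) and 2.12 for Tead4 (0.000395), all on the log2 scale. From day 4 to day 6 it changed by 0.85 for Hand1 (adjusted p = 0.0431) and 3.04 for Esx1 (0.000753). With no filter on dim probes the Cdx2 change to day 4 (adjusted p = 0.0855) and this Hand1 change (0.102) did not pass. From day 2 to day 6 the difference changed by 4.06 for Cdx2 (adjusted p = 0.00459), 0.95 for Eomes (0.00944), 5.47 for Hand1 (8.07e-06), 2.41 for Gata2 (0.000541), 3.84 for Gata3 (0.000741), 5.02 for Esx1 (8.07e-06) and 2.46 for Tead4 (9.45e-05). Each change ran upwards as a signed value, and the differences of Cdx2, Hand1, Gata2 and Tead4 were below 0 at day 2, where Gata2 alone of these was called, and above 0 later. These changes share the arrays of their days and are not independent of each other.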

How the results depend on the processing

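With samples named as the scanner files are attached, no member was called: 0 were higher at days 2, 4 and 6 and 0 lower at days 2 and 6. The differences that turned sign there were 1.32 at day 2 and -0.13 at day 6 for Cdx2, -0.13 and -0.23 for Eomes, 0.067 and -0.21 for Hand1, 0.56 and 0.22 for Tfap2c, -0.14 and -0.048 for Esx1 (-0.089 at day 4), and at day 2 alone 0.37 for Gata2 and 0.15 for Tead4. The changes of the difference from day 2 to 4, 4 to 6 and 2 to 6 that turned sign there were -1.22, -0.23 and -1.45 for Cdx2, -0.047, -0.23 and -0.27 for Hand1, -0.13, -0.12 and -0.25 for Gata2, -0.75, 0.41 and -0.34 for Tfap2c, -0.012, -0.033 and -0.045 for Tead4, -0.18 for Gata3 from day 2 to 4, and -0.10 for Eomes from day 2 to 6. The value table had 1 member lower at day 2 and 1 at day 4, Tfap2c in both. With the 4 arrays of day 2 alone 0 members were higher and 0 lower at day 2, in a fit with fewer samples, and with those of day 4 alone 1 was lower at day 4. Leaving out 1 array gave 1 to 3 members lower at day 2 and 0 to 1 lower at day 4. It moved the Cdx2 difference at day 2 between -1.29 and 0.54, and the Tfap2c change from day 2 to 6 between -0.0020 (without the first shIno80 array of day 2) and 0.90 (adjusted p = 0.0362, without its second). The Tfap2c change under shIno80 from day 4 to 6 was 0.053 with median scaling and 0.040 with quantile normalization. Apart from the other record, the 7 members called higher at day 6, and at day 4 with Gata2 excepted, kept their calls under every alternative that gave them a value. Without the first shNT or second shIno80 array of day 4 the Gata2 call of that day was lost (adjusted p = 0.0507 and 0.0582).

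Arrays with the same replicate number deviated together at r = 0.296 at day 2, 0.117 at day 4 and 0.083 at day 6 across genes. Whether the numbers pair the samples is not described, and the fit used here did not pair them. With the replicate block within each day 3827, 9620 and 11094 genes were called at days 2, 4 and 6, against 2397, 8107 and 9700. Under it the Tead4 difference at day 2 of -0.43 passed (adjusted p = 0.0362), as did the changes of Gata2 from day 4 to 6 (0.0488) and of Tfap2c from day 2 to 4 (0.028), and with 1 replicate block over all days the Hand1 change from day 4 to 6 did not (0.0565). For the gene lists, scaling alternatives chosen after seeing the data moved the Hippo count at day 2 to 0 higher with median scaling, and left 17 to 18 trophoblast genes higher at day 4 and 18 to 19 at day 6. Signal over background limits Elf5 on all days and Cdx2 at day 2. The causes of these shifts were not tested.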

Other observations

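Single genes of the marker lists for other cell types differed at day 6 by amounts like those of the members. Col1a1 and Dcn, matrix genes of fibroblasts and other mesenchyme, were higher under shIno80 by 3.88 (SE 0.13, adjusted p = 9.85e-07) and 3.82 (SE 0.34, adjusted p = 4.70e-05), while Thy1, a surface marker of fibroblasts, was lower by -0.68 (adjusted p = 0.00798), a call lost in the value table. Dcn was well above background on 1 of the 2 shNT arrays of that day. Wnt3, the posterior signal that starts gastrulation, was higher by 3.23 (SE 0.19, adjusted p = 7.32e-06), and Kdr, a receptor of mesoderm and endothelium, by 2.05 (SE 0.27, adjusted p = 0.000392). Of the 10 tested streak and mesoderm markers 4 were called higher at day 6 (Wnt3, Kdr, T and Lhx1) and 5 lower. The lower ones were Evx1, Gsc and Mesp1, by -1.67, -1.19 and -1.55, and Mesp2 and Pdgfra, by -0.49 and -0.53. Mesp1 was well above background on 1 of the 2 shIno80 arrays, and the calls of Mesp2 and Pdgfra were lost in the value table. Dab2, an adaptor protein of primitive endoderm and other epithelia, was higher by 1.92 (SE 0.11, adjusted p = 6.82e-06). Of the 8 primitive endoderm markers Afp was the other called higher, and Pdgfra, named above, was the 1 called lower. Gata4, Gata6, Sox17, Sox7 and Foxa2 were not called at that day, though Foxa2 passed in the value table (0.47, adjusted p = 0.0476). These genes were named after their values were seen.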
